A study of Homo sapiens with 96 samples.

Results

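Progesterone, the steroid hormone of the luteal phase and of pregnancy, was given together with the synthetic androgen R1881 to LAPC4 cells, and transcript levels were compared with those of cells that received R1881 alone. LAPC4 is a human prostate cancer cell line, and 3 arrays carry the title of progesterone at 10 uM with R1881 at 0.33 nM, against 6 arrays titled R1881 at 0.33 nM (1 to 3 and 1b to 3b). These are 9 of the 96 arrays of the series. The 6 arrays of 0.05% DMSO, the vehicle, give the level without added androgen, and the 3 arrays each of mifepristone, dexamethasone and androstenedione, all at 10 uM with the same R1881, serve as steroids of equal dose. Cells were exposed for 6 h, starting 48 h after plating, in fresh dosing medium. The study ran 3 experiments on separate days, and the labels do not tie arrays to days or say what sets the control arrays 1b to 3b apart from 1 to 3. The p-values below therefore measure only the spread between arrays, which may be partly technical. In the fit over all 96 arrays, that spread is pooled over the 30 groups of the series and not taken from the 9 arrays alone. A fit of these 9 arrays alone called 0 genes.

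R1881 is a synthetic androgen, and androgens raise genes such as the kallikreins, FKBP5 and TMPRSS2 in prostate cells. Progesterone acts through its own receptor and, at high concentrations, can also bind other steroid receptors, those of mineralocorticoids and glucocorticoids among them. Sterol supply is sensed by a separate system in the membrane of the endoplasmic reticulum: when sterol there is low, the SREBP factors are released and raise the genes of cholesterol synthesis, and high concentrations of progesterone are known to hinder the movement of cholesterol to that membrane.

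Values are log2 intensities of 18571 genes, each measured by its brightest probe, and all changes below are differences of log2 values (progesterone with R1881 minus R1881 unless stated). The 96 arrays fell into a larger profile of 62 arrays and a smaller profile of 34. All 3 progesterone arrays were of the larger profile, whereas R1881 arrays 3 and 3b were of the smaller, so 4 R1881 arrays share the progesterone arrays' profile. Progesterone array 3 stood apart: its correlation with its own profile was 0.87, against 0.98 and 0.99 for arrays 1 and 2, and 93 genes in it lay at least 0.5 above every other array of the series. Results are therefore given array by array and, where it matters, without that array. They are also given from a fit without the 6 arrays of other chemicals farthest from their profile and with the profile as a block (the reduced fit, chosen after seeing the data). The mean level over 11 luminal epithelial markers was 9.51 to 9.91 in the progesterone arrays and 9.56 to 10.06 in the R1881 arrays. Over 6 basal markers it was 6.93 to 6.98 with progesterone and 6.77 to 7.00 with R1881. Levels of different probes cannot be set against each other, so these means do not settle the cell type.

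With progesterone, 2 genes induced by R1881 fell: UGT2B11, an enzyme of the family that conjugates steroids with glucuronic acid, and CLDN8, a claudin of tight junctions. DIO2, KCNK13 and S100P, further R1881-induced genes, lay lower in all 3 progesterone arrays than in every R1881 array, while 10 of the 15 genes most responsive to R1881 overlapped between the groups. On the other side, HMGCS1 and NSDHL of cholesterol synthesis, the lipid regulator SREBF1, the cholesterol exporter ABCG1 and the phospholipase PLA2G3 lay higher in all 3 arrays. In the fit over all 96 arrays, limma called 8 genes higher, 0.0431% of all genes tested, and 2 lower, 0.0108% (Benjamini-Hochberg adjusted p under 0.05). Without adjustment, 618 genes were under that threshold. A gene was said to hold where all 3 progesterone arrays lay above the highest or below the lowest of the 6 R1881 arrays. By that description 121 genes held higher, 0.652% of all genes, and 163 held lower, 0.878%. The reduced fit called 48 genes higher, 0.258%, and 28 lower, 0.151%, of which 12 and 17 also held. For 25 of these 76 genes progesterone array 3 was the highest of the 96 arrays. Without array 3, which leaves fewer arrays, that fit called 6 genes, 5 of them among the 76. These were ABCG1, higher, and CLDN8, SPDEF, UGT2B11, TXNIP and DIO2, lower. Every other pass in the reduced fit given below was lost without array 3. Against the 4 R1881 arrays of the larger profile alone, 215 genes lay higher in all 3 progesterone arrays, 1.16%, and 320 lower, 1.72%. The median change over all genes was 0.0006.

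UGT2B11 lies in a cluster of related UGT2B genes on chromosome 4. Its level was 7.40, 7.53 and 7.34 in progesterone arrays 1 to 3, against 8.19 to 8.61 with a median of 8.57 in the R1881 arrays and 6.71 to 6.88 in the DMSO arrays. The 3 groups did not overlap, and progesterone lay between R1881 and DMSO. In such bulk samples, fewer cells with the transcript and less transcript per cell cannot be told apart. The change was -1.06 (SE 0.13), a 2.09-fold lower level, with an adjusted p of 5.36e-07 in limma. It was -1.02 without progesterone array 3 (adjusted p = 0.00016), and -1.02 among arrays of the larger profile (adjusted p = 8.09e-05). Beside it, R1881 minus DMSO was 1.70 (adjusted p = 8.78e-20) and progesterone with R1881 minus DMSO was 0.64 (adjusted p = 0.0173). The first comparison shares its R1881 arrays with that of R1881 against DMSO. A dimmer probe of UGT2B11 gave -0.63.

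UGT2B28, a close relative that also conjugates androgens, read 6.86, 6.65 and 6.47 with progesterone, against 6.89 to 7.69 with a median of 7.42 in R1881 alone. Its highest progesterone array lay just under the lowest R1881 array, while array 1 lay above the DMSO range of 6.45 to 6.67 and arrays 2 and 3 within it. The change of -0.69 (SE 0.18) missed the threshold in limma (adjusted p = 0.14) and passed in the reduced fit (-0.63, adjusted p = 0.002). R1881 minus DMSO was 0.81 for this gene (adjusted p = 0.000905). The other 5 measured members of the family had changes from -0.29 for UGT2B15 to -0.06 for UGT2B7, and none held or passed. For UGT2B15 and UGT2B17, androgen-glucuronidating enzymes of the prostate picked out after their values were seen, R1881 minus DMSO was -0.05 and -0.22. Over the 7 members the median was -0.27, with 1 called and 2 holding lower, and -0.09 in the reduced fit with 2 called. The shares over all genes were 0.0108% called lower, 0.878% holding lower and 0.151% called lower in the reduced fit. The members are very similar in sequence, and whether a probe reads its relatives was not tested.

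CLDN8 was at 7.17, 7.21 and 6.87 in the progesterone arrays, against 8.02 to 8.54 with a median of 8.41 in the R1881 arrays. The DMSO arrays ranged from 7.06 to 7.37, so 2 of the 3 progesterone arrays lay within the DMSO range and array 3 under it. The change was -1.25 (SE 0.27), a 2.37-fold lower level (limma, adjusted p = 0.0468), and against DMSO it was -0.10 (95% interval -0.64 to 0.44). Its other probe gave -0.94. Without progesterone array 3 the change of -1.14 did not pass over all arrays (adjusted p = 1) but did in the reduced fit (adjusted p = 0.000566). Leaving out R1881 array 1, 2, 3, 2b or 3b also ended the call, with adjusted p of 0.0683 to 0.109. Of 24 measured genes of claudins and tight junctions, CLDN8 alone was called or held. Changes were positive for 14 and negative for 10, with a median of 0.01. CLDN3, the claudin with the largest positive change (0.93), overlapped between groups, at 10.44, 10.89 and 11.80 with progesterone against 9.08 to 10.91.

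DIO2, the deiodinase that converts thyroxine to the active thyroid hormone, measured 7.68, 7.73 and 6.88 with progesterone, against 8.25 to 8.55 in R1881 alone. The DMSO arrays lay between 6.64 and 6.89, so array 3 read like DMSO while arrays 1 and 2 lay between DMSO and R1881. Its change was -0.94 (SE 0.23, adjusted p = 0.107 in limma). It passed in the reduced fit (-0.94, adjusted p = 4.72e-09), also there without array 3 (-0.67, adjusted p = 3.45e-05), and among larger-profile arrays (-0.92, adjusted p = 0.00998). A dimmer DIO2 probe gave -0.10.

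KCNK13, a potassium leak channel, showed the same arrangement, at 7.60, 7.63 and 6.87 with progesterone, against 7.95 to 8.65 with R1881 and 6.87 to 7.04 with DMSO. Its change of -0.99 (SE 0.38) did not pass in limma (adjusted p = 0.964) and did in the reduced fit (-0.94, adjusted p = 9.53e-05). S100P, a calcium-binding protein of epithelial tumours, had 7.80, 8.21 and 8.02 with progesterone, 8.46 to 9.24 with R1881 alone and 7.12 to 7.64 with DMSO. The 3 S100P groups did not overlap, and array 3 lay between the other 2. The change was -0.79 (SE 0.28, adjusted p = 0.83), and -0.91 in the reduced fit (adjusted p = 0.0112). Neither S100P nor KCNK13 passed in that fit without array 3.

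**Figure D1:**
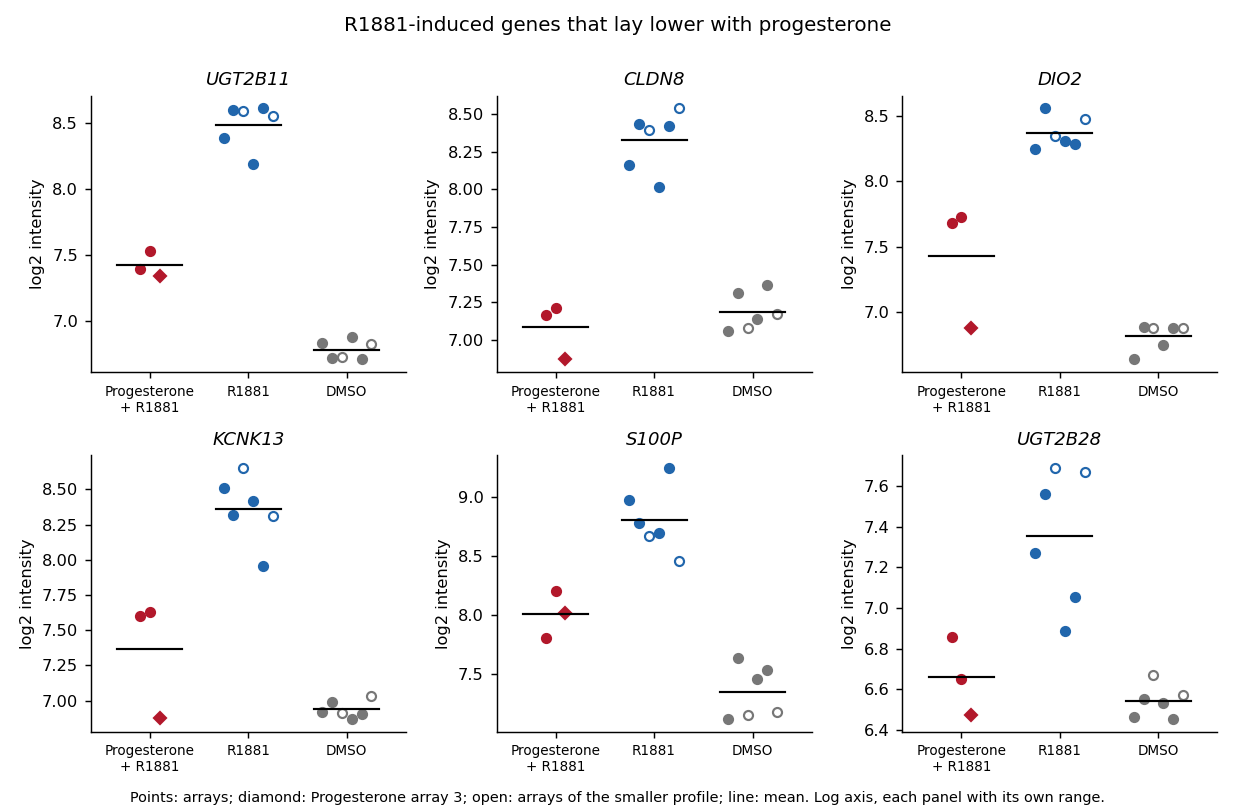
Log2 intensity of 6 R1881-induced genes (vertical axes, each with its own range) in the progesterone with R1881, R1881 and DMSO arrays. Points are arrays, diamonds progesterone array 3, open circles arrays of the smaller profile and lines group means. In each of the 6 genes the 3 progesterone arrays lie under the 6 R1881 arrays, and for CLDN8 and UGT2B28 most of them reach the level of the DMSO arrays.

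Most of the R1881 response overlapped between the groups with and without progesterone. Among 15 genes with the strongest response to R1881 in these same arrays (a list chosen from them, so its direction is no independent evidence), 5 held lower: UGT2B11, DIO2, KCNK13, S100P and SGK1. UGT2B11 was called, and 4 were called in the reduced fit. Of all genes, 0.878% held lower, 0.0108% were called lower and 0.151% were called lower in the reduced fit. The median of the 15 was -0.38, beside 1.55 for R1881 minus DMSO.

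SGK1, a kinase named for its induction by serum and glucocorticoids, had 11.45, 11.37 and 11.07 with progesterone, against 11.47 to 12.00 with R1881 alone and 8.82 to 8.98 with DMSO. Its progesterone arrays lay under the R1881 range (-0.49, 95% interval -1.34 to 0.36) and far above DMSO (2.39, adjusted p = 0.00276 in limma). Of the other SGK1 probes, both bright ones had larger differences from R1881, -1.32 and -0.72 (unadjusted p = 0.0451 and 0.173 in limma), and a dim one gave 0.04. FKBP5, a co-chaperone of steroid receptors, had 11.29, 11.23 and 10.68 with progesterone against 10.95 to 11.62, and these groups overlapped. The FKBP5 difference was -0.21 (95% interval -0.77 to 0.35), and it was 1.69 over DMSO (adjusted p = 0.00128).

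C1orf116, an androgen-regulated gene, differed by 0.03 from R1881 and by 2.39 from DMSO (adjusted p = 0.00249). NPPC, which encodes a natriuretic peptide, differed by -0.01 and 1.88 (adjusted p = 0.00504), and the kallikrein protease KLK2 by 0.06 and 1.28 (adjusted p = 0.0302). These genes, with SGK1, FKBP5 and UGT2B11, were among the 12 genes called higher with progesterone and R1881 than with DMSO, 0.0646% of genes. R1881 alone had 22 genes called higher than with DMSO, 0.118%. These counts rest on 3 progesterone and 6 R1881 arrays, so they are not of equal power. STARD4, a sterol gene that was high in progesterone array 3 alone, is also among the 12. Without progesterone array 1, 2 or 3 the count over DMSO was 103, 89 or 3. For KLK4 the difference from R1881 was -0.12, for TMPRSS2 -0.06, for CEBPD -0.15, for HPGD -0.35, for NDRG1 -0.38 and for EAF2 -0.50, none past the threshold. STEAP1, a metalloreductase-like membrane protein, had a difference of -0.76 that came with 9.39, 8.97 and 7.75 in the 3 arrays, against 8.64 to 10.15, so array 3 alone lay below R1881. Dimmer STEAP1 probes gave -0.49, -0.11 and 0.26.

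KLK3, which encodes prostate-specific antigen, was dim in all 3 groups (means of 6.81 with progesterone, 6.83 with R1881 and 6.73 with DMSO). Over 43 measured genes of an androgen-induced list, 33 changes were negative and 10 positive, with a median of -0.17. SGK1 held lower and no member was called, although 9 were called for R1881 against DMSO. The median was -0.03, -0.06 and -0.41 in progesterone arrays 1 to 3 taken in turn. The lowest of the 3 medians was that of array 3, and the part of that array's standing apart in the list's median was not tested. A list of androgen-repressed genes, 15 of them measured, moved the same way. It had 13 negative and 2 positive changes, with a median of -0.29, and -0.10 in the reduced fit. Its medians in arrays 1 to 3 were -0.11, -0.20 and -0.67. None of its members was called over all arrays, and 2 held lower, beside 0.878% of all genes.

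**Figure D2:**
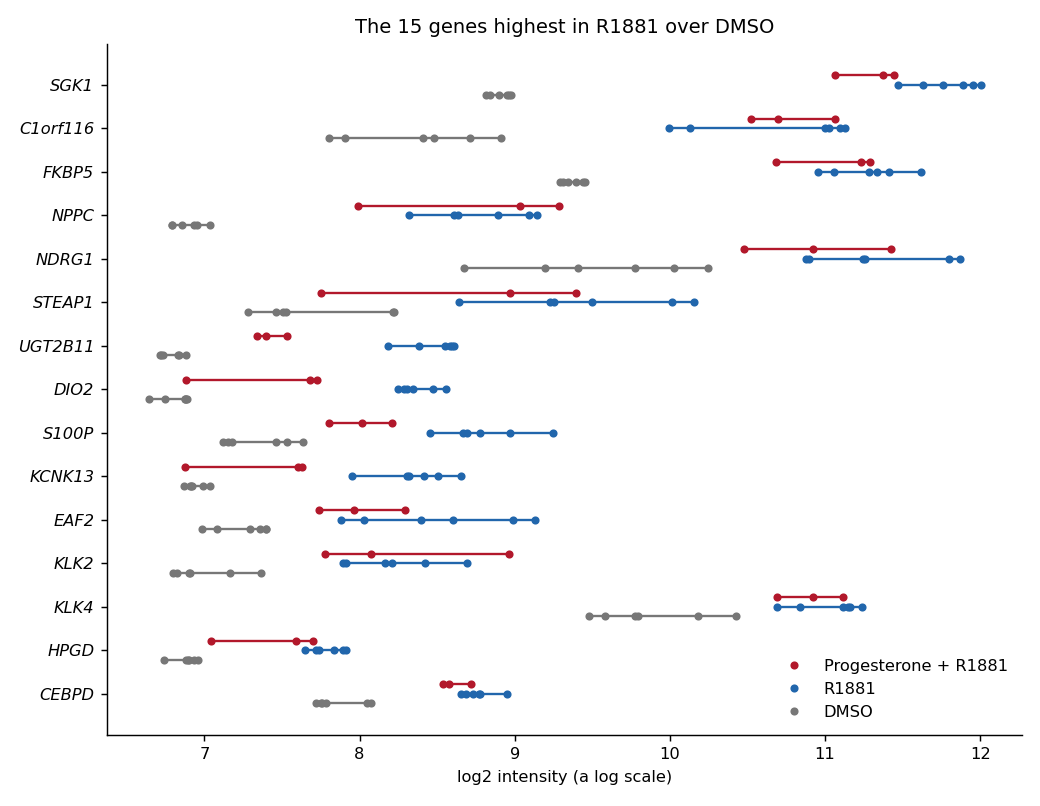
Log2 intensity (horizontal axis, a log scale) of the 15 genes with the strongest response to R1881 over DMSO, as points for arrays and lines for the range of each group. Progesterone with R1881 overlaps R1881 for most genes and lies apart from it for UGT2B11, DIO2, S100P, KCNK13 and SGK1.

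Both genes of sugar use and hypoxia that held lower did so most in array 3. HK2, the hexokinase that starts glycolysis, had 8.31, 8.07 and 7.04 with progesterone against 8.36 to 9.09 (-0.91, SE 0.31, adjusted p = 0.803 in limma, and 0.00436 in the reduced fit). ANKRD37, an ankyrin repeat protein raised by hypoxia, had 8.90, 8.64 and 7.09 against 9.02 to 9.66 (-1.07, adjusted p = 1, and 0.00396 in the reduced fit). In both genes arrays 1 and 2 lay close under the R1881 range and array 3 far under it. A dimmer HK2 probe gave -0.45. The 20 measured genes of the hypoxia and glycolysis list had 13 negative and 7 positive changes with a median of -0.24, and -0.10 in the reduced fit. Of all genes, 0.878% held lower and 0.151% were called lower in the reduced fit.

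CYP1A1, the cytochrome that marks activity of the aryl hydrocarbon receptor, was lower in all 3 arrays by similar amounts. Its levels were 6.82, 6.92 and 6.72 with progesterone, against 7.24 to 7.84 with R1881 and 7.09 to 7.66 with DMSO, so progesterone lay below both. The change was -0.72 (SE 0.37, adjusted p = 1), and -0.87 in the reduced fit (adjusted p = 0.00992). CYP1A2 also held lower narrowly and at the dim end of the scale (6.52 to 6.63 against 6.63 to 7.05). Another gene of the 8 in this list, TIPARP, had 7.94, 8.22 and 7.76 against 8.18 to 9.27, an overlap by 1 array. The list had 6 negative and 2 positive changes, with a median of -0.18.

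SOCS2, a suppressor of cytokine and growth hormone signalling, was the tightest of the brighter genes that held lower, at 9.18, 9.16 and 9.18 against 9.32 to 10.61 (-0.75, adjusted p = 1). The other brighter genes among the 10 lowest were SGK1, ANKRD37, ACAD8, AFG2B, PAK1IP1, SRSF7, VMA12, LINC00339 and RAPGEF5, with changes from -0.73 to -0.43 for the last 7. None passed over all arrays, and of the 7, ACAD8, a mitochondrial acyl-CoA dehydrogenase, and AFG2B, an ATPase of ribosome maturation, passed in the reduced fit (adjusted p = 0.00016 and 0.0408). CYTH1, an exchange factor for ARF proteins that was picked out after its values were seen, had 9.16, 9.17 and 9.11 against 9.45 to 9.69 and passed there too (-0.47, adjusted p = 0.00396). SPDEF, a luminal transcription factor, lay lower in all 3 arrays against the R1881 arrays of the larger profile, and not against all 6. It had 8.85, 9.42 and 9.69 against 9.57 to 10.21, and passed in the reduced fit (-0.83, adjusted p = 0.002). Over all arrays, dimmer probes gave -0.14 for ACAD8, -0.63 for PAK1IP1, -0.81 for SOCS2, and -0.50 and -0.43 for LINC00339.

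Genes of cholesterol synthesis lay mostly higher. Over 23 measured genes of synthesis and uptake, 17 changes were positive and 6 negative, with a median of 0.38 beside 0.0006 for all genes. HMGCS1 and NSDHL held in all 3 arrays, as did 0.652% of all genes in that direction. None was called over all arrays, and 5 were called in the reduced fit: HMGCS1, NSDHL, INSIG1, DHCR7 and STARD4 (median of the list 0.30). Of all genes, 0.258% were called higher there. Without progesterone array 3 the reduced fit called none of the list, with a median of 0.37 and 21 positive and 2 negative changes. The list's median was 0.33, 0.36 and 0.11 in arrays 1 to 3, so here array 3 had the lowest. For R1881 against DMSO the list's median was -0.02.

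The promoters of 3 of these genes are shown because most of the list shares a sequence element in this window. Each runs from 250 bases before to 50 bases after the transcription start, 5′ to 3′ on the gene's strand, from RefSeq on build GRCh38.p14. HMGCS1 lies at chr5:43313363-43313662 on the minus strand, NSDHL at chrX:152830813-152831112 on the plus strand and INSIG1 at chr7:155297628-155297927 on the plus strand. Capitals mark CCAAT, the box bound by NF-Y, on either strand (CCAAT or ATTGG).
HMGCS1: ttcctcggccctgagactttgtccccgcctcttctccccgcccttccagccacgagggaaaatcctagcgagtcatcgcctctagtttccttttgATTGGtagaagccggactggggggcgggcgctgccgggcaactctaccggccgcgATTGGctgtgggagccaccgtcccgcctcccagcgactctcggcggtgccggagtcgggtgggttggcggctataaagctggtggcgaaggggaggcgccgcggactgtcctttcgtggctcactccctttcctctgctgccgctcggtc
NSDHL: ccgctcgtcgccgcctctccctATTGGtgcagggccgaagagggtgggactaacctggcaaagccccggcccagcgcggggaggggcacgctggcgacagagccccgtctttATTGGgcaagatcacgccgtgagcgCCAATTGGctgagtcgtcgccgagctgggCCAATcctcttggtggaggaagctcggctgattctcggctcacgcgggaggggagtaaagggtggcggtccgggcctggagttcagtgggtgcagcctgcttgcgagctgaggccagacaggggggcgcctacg
INSIG1: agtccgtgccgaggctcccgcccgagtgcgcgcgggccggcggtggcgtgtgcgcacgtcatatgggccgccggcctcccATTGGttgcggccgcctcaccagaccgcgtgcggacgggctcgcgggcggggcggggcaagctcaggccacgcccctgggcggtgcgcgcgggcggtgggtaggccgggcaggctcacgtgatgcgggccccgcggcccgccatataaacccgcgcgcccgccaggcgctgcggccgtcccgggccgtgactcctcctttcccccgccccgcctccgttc
HMGCS1 holds 2 matches in this window, NSDHL 5, a pair of which overlap, and INSIG1 1. A second HMGCS1 start in the table, with its window at chr5:43313132-43313431, holds 0. The window of SREBF1, a gene outside this list that also lay higher with progesterone, holds 0 as well. Of 21 measured list members with an entry in the promoter table, 18 hold the motif in at least 1 window (85.7%), against 39.7% of all 27305 genes. Counted by window, the motif is in 20 of the list's 29 (69.0%), against 34.6% of all 35116. The SREBP element in the form TCACNCCAC is in 1 of the 21 list members and in 1.39% of all genes. These are letter matches and no measure of binding. UGT2B11, the gene with the smallest adjusted p, is shown beside them at chr4:69214699-69214998 on the minus strand, with the same marking.
UGT2B11: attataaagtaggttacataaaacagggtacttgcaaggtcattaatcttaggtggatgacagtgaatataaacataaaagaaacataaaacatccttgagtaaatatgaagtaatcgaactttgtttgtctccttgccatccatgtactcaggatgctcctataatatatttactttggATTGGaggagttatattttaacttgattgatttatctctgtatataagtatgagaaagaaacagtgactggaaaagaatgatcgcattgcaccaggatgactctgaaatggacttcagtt
It holds 1 CCAAT match and none of AGAACA, a hexamer of steroid response elements, which 14.8% of all windows hold on either strand. For ABCG1, CLDN8 and UGT2B28 no promoter was used.

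HMGCS1, the synthase that makes HMG-CoA for the mevalonate pathway, measured 11.57, 11.58 and 12.56 with progesterone, against 10.55 to 11.20 with a median of 11.02 with R1881 and 10.69 to 11.43 with DMSO. All 3 progesterone arrays lay above both controls, arrays 1 and 2 by less than array 3. Its change was 0.98 (SE 0.28), a 1.98-fold higher level, with an adjusted p of 0.334 in limma and 0.0377 in the reduced fit (0.92).

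NSDHL, a sterol dehydrogenase of the later steps, had 10.72, 10.79 and 11.01 with progesterone against 9.27 to 10.47 with R1881 and 9.36 to 10.31 with DMSO. In both control groups the arrays of the smaller profile were the lowest, at 9.30 and 9.27 with R1881 and 9.36 and 9.37 with DMSO. The NSDHL change was 0.91 over all arrays (SE 0.36, adjusted p = 1), and 0.61 in the reduced fit (adjusted p = 0.00396).

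INSIG1, the membrane protein that holds SREBP back when sterol is plentiful, is itself raised by SREBP. It had 11.09, 10.57 and 10.34 with progesterone, against 9.33 to 11.09 with R1881. The groups overlapped only through R1881 arrays 3 and 3b, of the smaller profile, at 10.81 and 11.09. The 4 arrays of the same profile lay between 9.325 and 10.004, all under progesterone. The change was 0.55 over all arrays and 0.91 in the reduced fit (adjusted p = 0.0327). A dimmer INSIG1 probe gave -0.18 over all arrays.

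DHCR7 and MVD are further enzymes of the pathway, named after their values were seen. DHCR7 had 11.32, 11.05 and 10.59 with progesterone against 9.42 to 10.62, and passed in the reduced fit (0.73, adjusted p = 0.0397). MVD had 9.74, 9.70 and 9.33 against 7.83 to 9.42, and did not (0.75, adjusted p = 0.0514). In both, array 3 lay inside the upper end of the R1881 range. STARD4, a cholesterol carrier named likewise, was high in array 3 alone, at 6.66, 6.59 and 7.94 against 6.45 to 6.65. SQLE, the squalene epoxidase, differed by 0.11 over all arrays (95% interval -1.02 to 1.24), and SREBF2, which encodes the SREBP form tied to cholesterol synthesis, by -0.09.

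SREBF1 encodes the SREBP form tied to fatty acid synthesis and is a target of the oxysterol receptor LXR. It had 9.87, 9.79 and 9.79 with progesterone, against 8.35 to 9.17 with R1881 and 8.44 to 9.24 with DMSO. The 3 progesterone arrays nearly coincided and lay above every control array, and the progesterone mean ranked 1 among the 30 groups of the series. The change was 0.99 (SE 0.38), a 1.99-fold higher level, with an adjusted p of 0.991 over all arrays and 0.00469 in the reduced fit (0.79). Dimmer SREBF1 probes gave 1.11 and 0.04. By the same ranking of the 30 groups, progesterone was 1 for NSDHL, 2 for PLA2G3, 3 for HMGCS1 and for ABCG1, and 8 for INSIG1.

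ABCG1, which exports cholesterol and is also an LXR target, had 8.06, 8.28 and 7.90 with progesterone, against 7.15 to 7.42 with R1881 and 7.18 to 7.83 with DMSO. All 3 progesterone arrays lay above both controls, which overlapped each other, and the gap to R1881 was larger than the whole R1881 range. The ABCG1 difference was 0.80 (SE 0.19, adjusted p = 0.0888 in limma). It passed in the reduced fit (0.80, adjusted p = 0.00396), also there without array 3 (0.89, adjusted p = 0.0214), as the 1 gene called higher in that fit, beside 5 called lower. Of 4 dimmer ABCG1 probes, 2 gave 0.63 and 0.53 and the other 2 -0.11 and -0.04.

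Further LXR targets, named after their values were seen, had smaller differences and did not pass. LPCAT3, a phospholipid remodelling enzyme, differed by 0.37, the ubiquitin ligase MYLIP by 0.25, and the cholesterol exporter ABCA1 by 0.23. ABCA1 was at 7.27, 7.47 and 6.78 against 6.70 to 7.12, high in arrays 1 and 2 and not in array 3. The 11 measured LXR targets had 8 positive and 3 negative changes with a median of 0.23, and of 0.07 in the reduced fit, where SREBF1 and ABCG1 were called. Of all genes, 0.258% were called higher in that fit. Fatty acid synthesis genes had 13 positive and 3 negative changes (median 0.18), and none held or passed. PLA2G3, a secreted phospholipase, had 9.57, 9.62 and 10.14 with progesterone, against 8.35 to 9.01 with R1881 and 8.86 to 9.74 with DMSO. It differed by 1.04 (SE 0.32, adjusted p = 0.464), and by 0.90 in the reduced fit (adjusted p = 0.000815). R1881 minus DMSO was -0.57 for this gene (adjusted p = 1), and progesterone arrays 1 and 2 lay within the DMSO range.

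**Figure D3:**
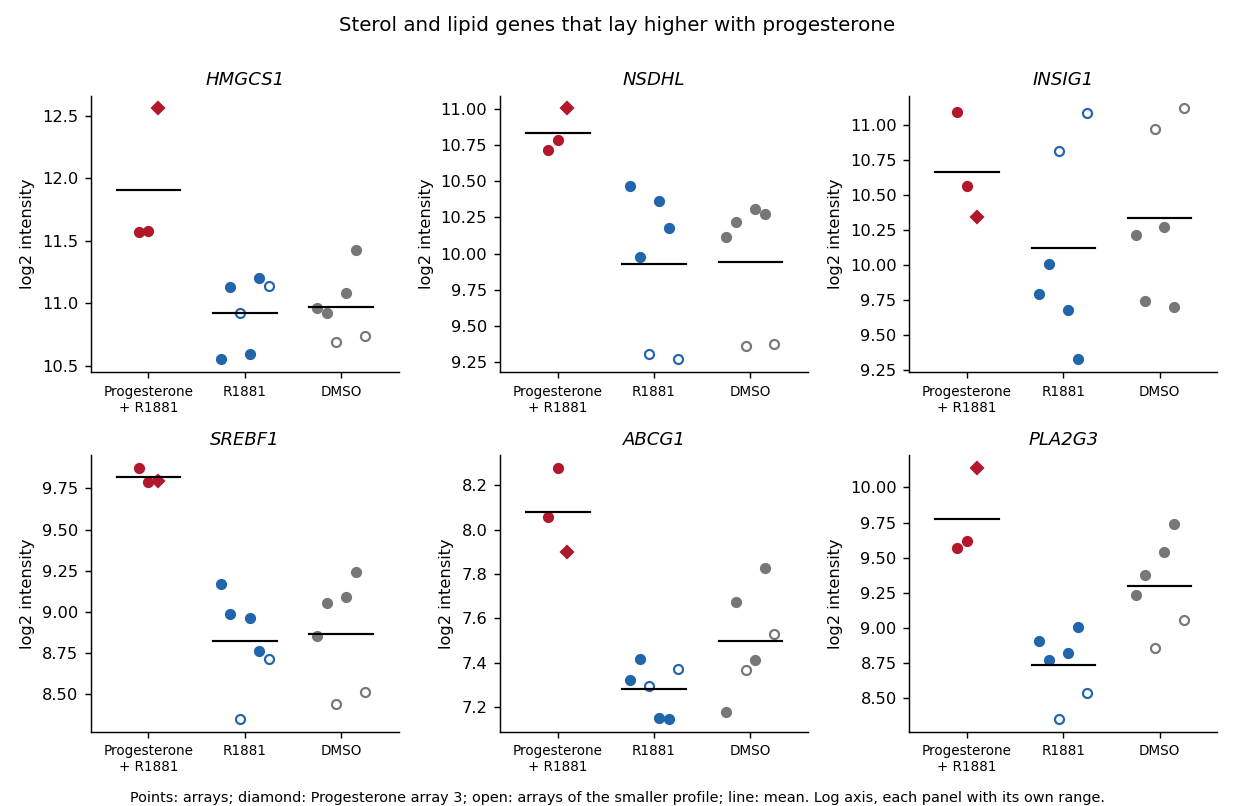
Log2 intensity of 6 sterol and lipid genes (vertical axes, each with its own range) in the progesterone with R1881, R1881 and DMSO arrays. Points are arrays, diamonds progesterone array 3, open circles arrays of the smaller profile and lines group means. For INSIG1 only the open circles reach the progesterone arrays, and for SREBF1 the 3 progesterone arrays nearly coincide.

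The remaining bright genes that held higher were STX5 and STX3, syntaxins of vesicle fusion, VGLL4, a cofactor of TEAD factors, SNTB2, a syntrophin, PITPNM1, a phosphatidylinositol transfer protein, and SOX11, a transcription factor. Their changes ran from 0.36 for SOX11 to 0.77 for STX5, and none passed in limma. Dimmer probes of 3 of these genes did not show the difference: they gave -0.04 and 0.15 for STX5, 0.0006 for SNTB2 and -0.03 for SOX11. STX5 had 10.73, 10.94 and 11.32 against 9.45 to 10.67, and VGLL4 9.72, 9.74 and 10.02 against 8.86 to 9.57. The DMSO range reached 10.80 for STX5, above 1 progesterone array, and 10.10 for VGLL4, above all 3.

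The 8 genes that limma called higher were high in progesterone array 3, which was the highest of the 96 arrays for each. TTC28-AS1, an antisense transcript, had 6.66, 6.66 and 8.48 with progesterone, against 6.50 to 6.66 with R1881 (0.70, adjusted p = 0.0187). SH2D2A, an adapter of T cells, had 6.73, 6.89 and 8.54 against 6.57 to 6.79 (0.68, adjusted p = 0.0381). RGS1, a G-protein regulator of lymphocytes, had 6.74, 6.57 and 8.08 (0.54, adjusted p = 0.0468), and GPR171, a receptor of blood cells, 6.66, 6.79 and 7.88 (0.53, adjusted p = 0.0187). OR8U9, SAG, ANKLE1 and CAVIN2 changed by 0.48, 0.47, 0.33 and 0.32. Dimmer probes of OR8U9 and ANKLE1 gave 0.02 and -0.04. CAVIN2, a protein of caveolae, was the 1 of the 8 that held, at 6.74, 6.70 and 7.24 against 6.53 to 6.62. Without array 3 none of the 8 was called.

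Mean levels of immune and of endothelial markers were higher in array 3 than in the other progesterone arrays and the R1881 arrays. The mean level over 17 measured immune markers was 7.26 in array 3, against 6.76 and 6.79 in arrays 1 and 2 and 6.72 to 6.75 in the R1881 arrays. Changes were positive for 14 of the 17 and negative for 3. SH2D2A and GPR171 were called, and 0.0431% of all genes were called higher. Both are among the 8 genes above and were listed with earlier results of these data known, so their calls are no separate evidence. They also enter the mean of the list. Among members picked out after their values were seen, CD8A had 6.74, 6.92 and 8.15, CD68 7.20, 7.57 and 8.30 and MS4A1 6.74, 6.77 and 7.71, while PTPRC, the pan-leukocyte marker, had 6.60, 6.57 and 6.93, near the dim end. Dimmer MS4A1 probes differed from R1881 by -0.11 and -0.05. In the list 1 member held higher and 1 held lower, beside 0.652% and 0.878% of all genes. CD2, another member, differed by -0.18 to -0.11 across the 27 settings run. The mean over 6 endothelial markers was 7.32 in array 3, against 6.68 and 6.75 in arrays 1 and 2 and 6.65 to 7.16 in the R1881 arrays, of which 2b was the highest. The means over fibroblast markers (7.24) and basal markers (6.98) lay inside their R1881 ranges of 7.11 to 7.28 and 6.77 to 7.00. The luminal mean was 9.51 there, against 9.91 and 9.90 in arrays 1 and 2 and 9.56 to 10.06 with R1881. The part of these levels in the 8 calls was not tested. Some arrays of other chemicals with low correlations to their profile also had high immune means. These were 7.31 in spironolactone array 2 (correlation 0.08), 7.07 in trenbolone array 2 (-0.34) and 7.03 in apigenin array 2 (0.73). Their endothelial means were 6.74, 7.06 and 7.17.

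**Figure D4:**
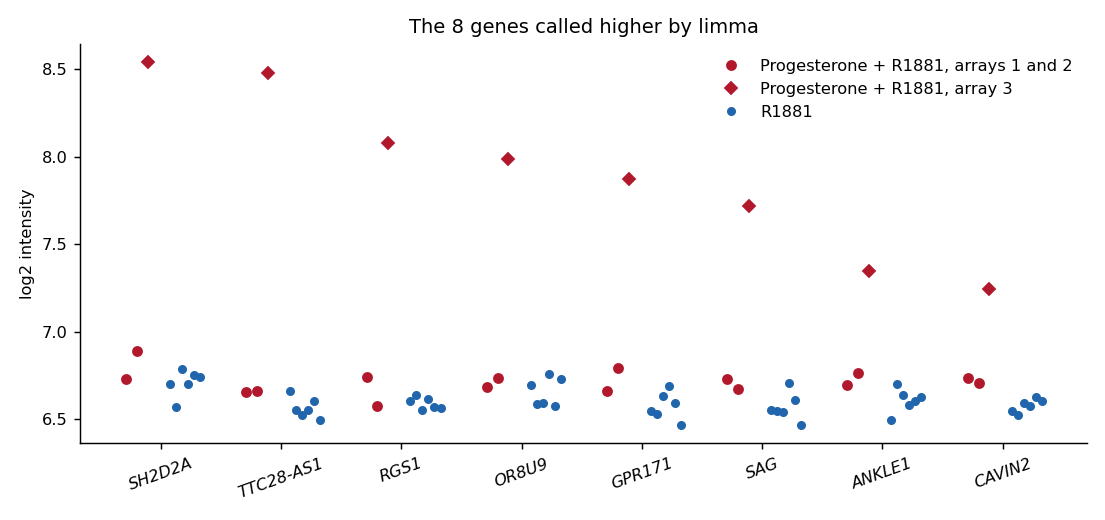
Log2 intensity (vertical axis) of the 8 genes called higher by limma, in progesterone arrays 1 and 2 (circles), progesterone array 3 (diamonds) and the 6 R1881 arrays (smaller circles). Array 3 lies far above all the others, while arrays 1 and 2 lie in or just above the R1881 range.

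The steroids given at 10 uM with R1881 allow 3 pairs to be compared directly, with p-values adjusted over all genes of the 3 pairs together. Mifepristone is a steroid with a bulky dimethylaminophenyl group that blocks the progesterone and glucocorticoid receptors. Dexamethasone is a fluorinated and methylated glucocorticoid. Androstenedione has a ketone where progesterone carries its acetyl side chain, and is converted to testosterone in tissues. Progesterone differed from mifepristone in 4 genes, 0.0215% of genes tested, from dexamethasone in 7, 0.0377%, and from androstenedione in 2, 0.0108%. Without progesterone array 3 these counts were 3, 3 and 1, and without array 1 they were 72, 71 and 58. Without progesterone array 2 they were 52, 52 and 41. Leaving out dexamethasone array 1, 2 or 3 gave 73, 4 or 41, leaving out mifepristone array 1 gave 2, and leaving out androstenedione array 1 or 2 gave 1 each.

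UGT2B11 separated the steroids into a low and a high pair. It was 7.40, 7.53 and 7.34 with progesterone and 7.09, 7.37 and 7.28 with mifepristone, against 8.24, 9.02 and 8.46 with dexamethasone and 8.41, 8.28 and 8.18 with androstenedione. The difference from dexamethasone was -1.15 (SE 0.15, adjusted p = 3.98e-06 in limma), and from androstenedione -0.87 (SE 0.15, adjusted p = 0.00359). From mifepristone it was 0.17, with a 95% interval of -0.13 to 0.48.

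S100P with dexamethasone reached 9.29, 9.43 and 10.44, against 7.80, 8.21 and 8.02 with progesterone (-1.71, SE 0.32, adjusted p = 0.007). Against androstenedione (8.73, 9.57 and 8.81) the S100P difference of -1.03 did not pass (adjusted p = 0.623), and against mifepristone (7.47, 7.34 and 8.40) it was 0.27 (95% interval -0.37 to 0.91). PGC, the stomach protease precursor progastricsin, was 6.89, 6.96 and 6.66 with progesterone against 7.88, 8.10 and 8.24 with dexamethasone (-1.24, adjusted p = 8.57e-07).

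CLDN8 and DIO2 did not pass in any pair. For CLDN8 the difference was -0.11 from mifepristone (95% interval -0.73 to 0.51), -0.72 from dexamethasone (adjusted p = 1) and -1.11 from androstenedione (adjusted p = 0.383). In dexamethasone array 2, an array with a correlation of 0.87 to its profile, CLDN8 was 6.89, against 8.24 and 8.29 in the other 2. DIO2 differed by 0.16 from mifepristone (95% interval -0.37 to 0.69), by -0.79 from dexamethasone and by -1.20 from androstenedione (adjusted p = 0.0678). Its 3 progesterone arrays lay under all arrays of the last 2 steroids.

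ABCG1 was higher in all 3 progesterone arrays than in any array of the other 3 steroids. Its levels of 8.06, 8.28 and 7.90 compare with 6.80, 6.63 and 7.33 with mifepristone, 7.21, 6.61 and 7.55 with dexamethasone and 6.98, 6.79 and 7.00 with androstenedione. The difference passed for mifepristone (1.16, SE 0.22, adjusted p = 0.007) and androstenedione (1.16, SE 0.22, adjusted p = 0.007), and not for dexamethasone (0.96, adjusted p = 0.0806). HMGCS1 did not pass in any pair: the difference was 0.02 from mifepristone (95% interval -0.63 to 0.66), -0.17 from androstenedione (-0.81 to 0.48) and 0.62 from dexamethasone (-0.03 to 1.27). SREBF1 was 0.75 to 1.05 higher with progesterone than with the other 3, with adjusted p of 1 for each.

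The other genes that differed from mifepristone were of the stress response and were high with mifepristone. CHAC1, which breaks down glutathione and is a target of the stress factor ATF4, had 6.79, 6.93 and 6.51 with progesterone against 7.96, 7.51 and 7.71 (-0.99, adjusted p = 6.7e-08). ULBP1, a ligand of natural killer cells, had 6.81, 6.88 and 6.78 against 7.81, 7.48 and 7.71 (-0.84, adjusted p = 4.92e-06). DDIT3, a stress-induced transcription factor, had 8.01, 8.29 and 7.30 against 10.40, 9.32 and 8.74 (-1.62, adjusted p = 0.0146). With progesterone these 3 genes differed from R1881 by 0.12, 0.03 and 0.09. The 28 genes of the ATF4 and amino acid response list had 19 positive and 9 negative changes against R1881 (median 0.12), with none called or holding. From dexamethasone, FCGR2B and LIPJ also differed, by -0.69 and -0.63, with a high dexamethasone array 2 (8.34 and 7.71), and PCDHGB4, by 0.55, with a high progesterone array 3 (7.79, against 6.70 and 6.67). The last was NUDT16L2P, a pseudogene named after its values were seen (-0.38).

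**Figure D5:**
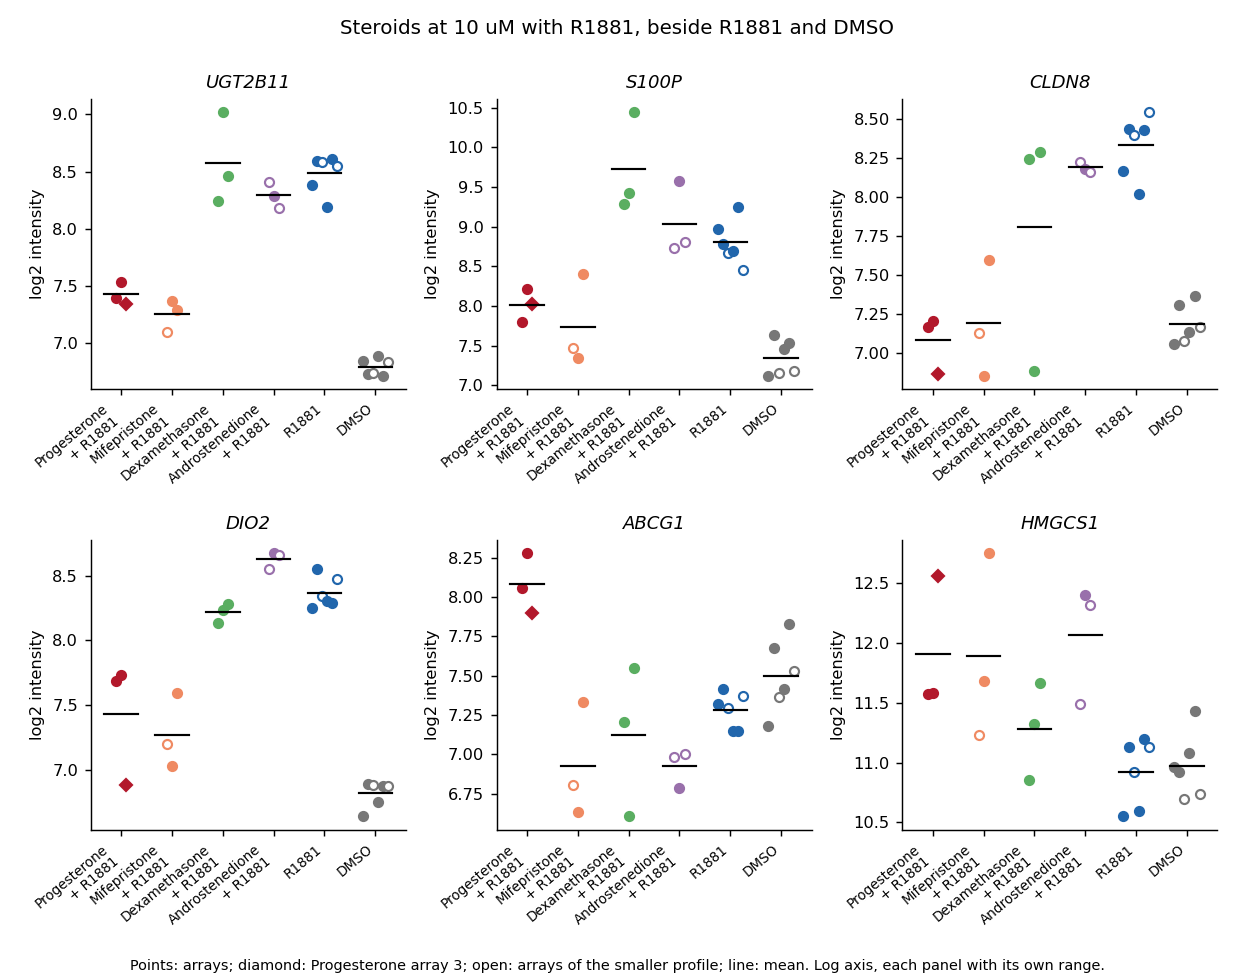
Log2 intensity of 6 genes (vertical axes, each with its own range) with 4 steroids at 10 uM given with R1881, beside R1881 and DMSO. Points are arrays, diamonds progesterone array 3, open circles arrays of the smaller profile and lines means. UGT2B11, CLDN8 and DIO2 are low with progesterone and mifepristone, and among the groups drawn ABCG1 is highest with progesterone.

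Other steroids with progestin activity were given at other doses, so their levels are set side by side only. Cyproterone acetate, a chlorinated progesterone derivative used as an antiandrogen, was given at 20 uM, and norethindrone, a synthetic progestin, at 0.5 uM, both with R1881. UGT2B11 averaged 7.42 ± 0.097 with progesterone (SD, n = 3), beside 7.47 ± 0.049 with cyproterone acetate and 8.49 ± 0.14 with norethindrone. CLDN8 averaged 7.08 ± 0.18 with progesterone, beside 7.12 ± 0.11 with cyproterone acetate and 8.56 ± 0.16 with norethindrone. HMGCS1 averaged 11.91 ± 0.57 with progesterone, 11.94 ± 0.58 with cyproterone acetate and 11.01 ± 0.35 with norethindrone. For ABCG1 the means were 8.08 ± 0.19 with progesterone, 7.44 ± 0.17 with cyproterone acetate and 7.24 ± 0.10 with norethindrone. SREBF1 averaged 9.82 ± 0.046 with progesterone, 9.52 ± 0.56 with cyproterone acetate and 9.04 ± 0.21 with norethindrone. No comparison is made across these doses.

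None of the 14 measured steroid receptors was called or held. PGR, the progesterone receptor, was dim, at 6.46, 6.66 and 6.55 with progesterone against 6.48 to 6.64 with R1881. NR3C1, the glucocorticoid receptor, was dim as well and differed by 0.02, and NR3C2, the mineralocorticoid receptor, by -0.46 (adjusted p = 1), with array 3 at 6.86 beside 7.53 in both others. NR1I2, the pregnane receptor that progesterone binds in liver, was not analysed here. Genes induced by progestins in other cells had 12 negative and 5 positive changes with a median of -0.02, glucocorticoid-induced genes 11 positive and 9 negative with a median of 0.03, and pregnane receptor targets 8 positive and 4 negative with a median of 0.03. No member of these lists was called, and SGK1 alone held. Steroid-converting enzymes were split evenly, 14 against 14, with a median of -0.01. Mitotic genes had 16 negative and 9 positive changes (median -0.21), beside a median of -0.18 for R1881 against DMSO, and none was called over all arrays.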

How the data were processed

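Total RNA of LAPC4 cells was hybridised to Illumina HT-12 beadchips, scanned with iScan software 3.3.28 and analysed in GenomeStudio and Partek, per the series' design text. The submitters' processing notes also name limma, with no role given. Log2 intensities were deposited, already normalized by the authors: medians of the 96 arrays ran from 6.7211 to 6.7212. The background correction and normalization method are not given in the sources used here. Of 48107 probes, 30113 have 1 gene symbol in the platform annotation, 8 several and 17986 none. A probe was kept if it exceeded its array's 50th percentile in at least 3 arrays (43820 kept), and the kept probe with the highest mean stood for its gene (18571 genes). limma 3.58.1 in R 4.3.3 fitted the 30 groups over all 96 arrays, with lmFit, eBayes and Benjamini-Hochberg adjustment over all genes of a comparison (over the 3 pairs together for the other steroids). Intervals are 95% intervals of that fit. The procedure was tested on simulated data. Genes were named by a rule: called genes, up to 10 genes that held in each direction with a mean above the 75th percentile, up to 4 members of each list, a fixed set of receptor, androgen and sterol genes, and up to 5 called genes in each direction in each steroid pair. The members and lists were chosen with earlier results of these data known. Alternatives varied the filter, normalization, control arrays, array weights, blocks and arrays left out. The number of arrays limits the precision.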

Additional observations from a re-analysis of the deposited data

Results flagged for a closer look

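Among 106 named genes, 212 groups of 6 control arrays were examined for a single array far from the other 5, and 9 had one by Dixon's test. Chance gives such an array in about 5% of groups. With R1881, array 2b was high for ESAM (7.95, the next at 6.91), PECAM1 (7.3, the next at 6.79) and CYP3A43 (7.4, the next at 6.81), and array 1 was low for CD2 (6.72, the next at 6.83). ESAM and PECAM1 are endothelial genes. With DMSO, array 1b was high for CAVIN2 (7.03, the next at 6.67) and for NR3C1 (6.98, the next at 6.81). DMSO array 1 was high for CYP2C8 (7.03, the next at 6.72) and low for HPGD (6.74, the next at 6.88), and DMSO array 3 was low for ANKLE1 (6.48, the next at 6.62).

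Of 16730 kept probes without a gene in the annotation used, 9 were called in progesterone with R1881 against R1881 by limma over all kept probes. ILMN_1679194 was the 1 called lower (-1.16, adjusted p = 0.0017), at 7.56, 7.58 and 6.91 with progesterone against 8.02 to 8.74 with R1881, and all 3 arrays lay under R1881. ILMN_1760334 was higher in all 3 arrays (0.25), at 6.82, 6.83 and 7.09 against 6.60 to 6.72. ILMN_3267523 (0.41) had 6.88, 6.93 and 7.39 against 6.56 to 6.79, and ILMN_3254515 (0.35) had 6.79, 6.66 and 7.34 against 6.53 to 6.66, so both also lay above R1881 in all 3 arrays, the second in array 2 by 6.660 against 6.656. ILMN_1652166 had the largest rise (1.17), at 6.59, 6.71 and 10.13 against 6.59 to 6.67, with its highest value in progesterone array 3. The other 4 also had their highest value in array 3, with changes of 0.62 for ILMN_1661022, 0.51 for ILMN_1343511, 0.44 for ILMN_3266506 and 0.29 for ILMN_1769187, and did not lie above R1881 in all 3 arrays.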

How the results depend on the processing

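Counts of called genes are given for progesterone with R1881 against R1881 (10 as reported), R1881 against DMSO (23), progesterone with R1881 against DMSO (12), and progesterone against mifepristone (4), dexamethasone (7) and androstenedione (2), in that order. Fitting only the arrays of the groups compared gave 0, 62, 4, 0, 0 and 0. Leaving out the 6 arrays far from their profile gave 43, 82, 87, 22, 28 and 11, and adding the array profile centred within groups as a block gave 928, 172, 1213, 97, 106 and 82; that block alone gave 40 and 37 for the comparisons with DMSO. Array weights gave 106, 146, 251, 128, 34 and 2751. Cyclic loess gave 16, 60, 41, 13 and 11 for the first 5, the mean of a gene's probes 1 for androstenedione, and limma with trend and robust settings 7 for mifepristone. Of the genes called, 4 with progesterone against R1881 and 7 against DMSO changed at least 1.5-fold. Averaging control arrays of the same number gave 1, 5 and 0 for the first 3. Control arrays 1 to 3 alone gave 1 and 5 for the first 2, and 1b to 3b alone 1 and 6. Among alternatives chosen after seeing the data, the uncentred profile as a block gave 5 for the first, the reduced fit 76, 183, 191, 43, 71 and 21, the larger profile alone 2, the reduced fit without progesterone array 3 gave 6, and leaving out R1881 arrays 3 and 3b gave 2. Leaving out 1 array at a time gave 1 to 104 (104 without progesterone array 1, 85 without 2 and 1 without 3), 19 to 23, 3 to 104, 2 to 72, 3 to 73 and 1 to 58.

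The 284 genes that held became 2992 by the same sign against R1881 arrays of the same number, 1626 with R1881 arrays 1 to 3, 858 with 1b to 3b, 535 with the larger profile, 16 with a margin of 0.2, and 351 to 1235 with 1 array left out. The replicate block gave 9, 29, 13, 4, 7 and 2 calls; the numbers did not pair the arrays (same-number correlations of -0.019, -0.384 and -0.284). No called change reversed under the alternatives run. Differences that were not called did turn sign for some genes, with ranges of -0.45 to 0.15 for C1orf116, -0.27 to 0.47 for NPPC, -0.37 to 0.30 for KLK2 and -1.11 to 0.03 for STEAP1 (0.03 in the reduced fit without progesterone array 3). The median of the glucocorticoid-induced list was -0.04 in the reduced fit (8 positive, 12 negative). UGT2B11 stayed past the threshold in 26 of 27 settings, the exception being the fit of the compared groups alone (adjusted p = 0.0651), and CLDN8 in 14 of 27, with changes from -1.31 to -1.09. The cause of these moves was not tested. The number of progesterone arrays, 3, limits the precision.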
